A study of Mus musculus with 6 samples.

Results

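The 4 HOX clusters of the mouse hold 39 protein-coding genes whose symbols are Hoxa, Hoxb, Hoxc or Hoxd followed by a number, out of 21887 protein-coding genes placed on chromosomes in the RefSeq table of assembly GRCm38.p6. Accessible regions were made by merging the peaks of 3 ATAC-seq lists that shared at least 1 bp, and those that overlapped a cluster, from its first to its last gene with 20 kb on each side, were taken as its regions. This gave 50 of the 81315 regions in the data. The Hoxa cluster had 18 regions, the Hoxb cluster 14, the Hoxc cluster 4 and the Hoxd cluster 14. ATAC-seq uses the Tn5 transposase, which cuts and tags DNA where chromatin is open, and a peak is a stretch where such cuts pile up.

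The cells were CD4 T cells of C57BL/6 mice in 3 conditions, each with 2 libraries labelled as independent biological replicates and with 1 list of peaks. Naive CD4 T cells were untreated. Th17 cells came from isolated naive cells cultured for 48 h or for 72 h in plates pre-coated with hamster IgG, with antibodies to CD3ε at 0.25 µg/mL and to CD28 at 1 µg/mL, TGF-β at 0.1 ng/mL and IL-6 at 20 ng/mL. Both antibodies stand in for antigen and costimulation, and TGF-β with IL-6 steers activated cells to the Th17 type, which makes IL-17. No culture with the antibodies but without the cytokines is part of the comparison, so activation, polarisation and time in culture cannot be told apart.

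HOX genes encode homeodomain transcription factors. Within a cluster they lie in the order in which they are used along the body axis, and genes at the same place in different clusters, called paralog groups, are copies of one ancestral gene. Polycomb complexes keep the clusters silent where they are not used and Trithorax complexes keep them active. In blood, HOX genes of the A and B clusters are best known from stem and progenitor cells and from leukaemia, and they are turned down as cells mature. Paralog groups 1 to 4 are called anterior here, 5 to 8 central and 9 to 13 posterior.

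The naive list held 53259 peaks, the 48 h list 40624 and the 72 h list 53926. The lists give no reads, so the depth is unknown, and with 1 list per condition no difference between conditions has a replicate check, so no p-value is given. Regions of a list are not replicates of a condition. In a comparison of 2 conditions a region is called gained when only the later list has a peak in it and lost when only the earlier one has, and a missing peak does not show that the chromatin was closed. All 9 pan T cell markers, among them Cd3e and Cd4, had regions within 10 kb in every list. Of all 21887 protein-coding genes 15093 had such regions in naive cells, 15286 at 48 h and 16011 at 72 h. The regions of the 9 markers summed to 82, 43 and 59 in that order. Of 7 Th17 markers, 5 had regions in naive cells, 7 at 48 h and 7 at 72 h, and their regions summed to 35, 49 and 65. Il17a, the signature cytokine, had 0, 3 and 5. Il23r had fewer regions at both later times than in naive cells, with 9, 5 and 7. Regions near markers of other cells were also present. Over the 6 B cell markers they summed to 14 in naive cells, 16 at 48 h and 28 at 72 h, of which Ebf1 had 4, 8 and 17, with Ms4a1 at 0. They summed over the 6 CD8 and NK cell markers to 9, 8 and 12 with Ncr1 at 0. Over the 6 myeloid markers they summed to 15, 5 and 6, with Itgam at 7, 1 and 1, Spi1 at 6, 2 and 2, and Csf1r, Lyz2 and Adgre1 at 0. Over the 6 markers of blood progenitors, the cells in which HOX genes are best known, they summed to 15, 11 and 16, with Kit at 0, 0 and 4 and Flt3 at 11, 4 and 6. Such regions need not mean such cells, and whether other cells in the cultures add to the HOX regions was not tested.

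RefSeq gives 24 transcription starts for 22 of the 39 HOX genes. How often the starts of all genes lie inside a region was not counted. Inside an accessible region lay 3 of these 24 HOX starts. They are those of Hoxa13, which shapes the digits and the urogenital tract, of Hoxd1, an anterior gene known in mouse from sensory neurons, and of Hoxa11, which shapes the forearm and the uterus. Their promoters are shown, 250 bases before to 50 after the start on assembly GRCm38.p6, because each had a different pattern over the 3 lists, and the capitals are the bases inside the accessible region. The Hoxa13 promoter lies at chr6:52260831-52261130 on the minus strand and its region was present in naive cells and at 72 h. The Hoxd1 promoter lies at chr2:74762730-74763029 on the plus strand and its region was present at 72 h alone. The Hoxa11 promoter lies at chr6:52245761-52246060 on the minus strand and its region was present in naive cells alone.
Hoxa13: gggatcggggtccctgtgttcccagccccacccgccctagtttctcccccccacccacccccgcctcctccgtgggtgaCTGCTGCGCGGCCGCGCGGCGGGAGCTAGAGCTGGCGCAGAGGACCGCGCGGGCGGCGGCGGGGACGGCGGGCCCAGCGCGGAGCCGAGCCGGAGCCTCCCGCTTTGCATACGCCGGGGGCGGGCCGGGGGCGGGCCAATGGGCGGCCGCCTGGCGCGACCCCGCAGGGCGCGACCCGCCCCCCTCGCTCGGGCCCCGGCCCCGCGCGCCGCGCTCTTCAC
Hoxd1: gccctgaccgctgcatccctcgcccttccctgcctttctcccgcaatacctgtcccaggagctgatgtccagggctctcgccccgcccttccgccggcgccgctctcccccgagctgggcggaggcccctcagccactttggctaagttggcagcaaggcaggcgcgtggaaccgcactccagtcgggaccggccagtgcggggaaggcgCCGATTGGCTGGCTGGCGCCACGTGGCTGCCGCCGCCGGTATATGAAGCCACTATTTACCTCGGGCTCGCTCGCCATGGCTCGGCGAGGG
Hoxa11: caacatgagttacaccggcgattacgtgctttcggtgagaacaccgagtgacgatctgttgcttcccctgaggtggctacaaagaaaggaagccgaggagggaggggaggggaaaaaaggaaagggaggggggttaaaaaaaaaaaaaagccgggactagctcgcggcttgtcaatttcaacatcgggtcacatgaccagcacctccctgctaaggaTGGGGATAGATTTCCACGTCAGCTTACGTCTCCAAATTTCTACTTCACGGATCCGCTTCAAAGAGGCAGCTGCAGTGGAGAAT

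Of the 300 bases of each promoter, 221 lay in the region for Hoxa13, 90 for Hoxd1 and 83 for Hoxa11. The 3 promoters differ in base content. That of Hoxa13 had 45 CpG dinucleotides and 81.0% G or C, that of Hoxd1 29 CpG and 69.7%, and that of Hoxa11 15 CpG and 51.0%. The median over the 24 HOX promoters was 14.5 CpG and 57.7% G or C, close to the 13 CpG and 56.3% of all 21263 promoters in the table. Motif letters searched on both strands were about as common in HOX promoters as elsewhere. CCCTC, the core letters of the site of CTCF, which anchors chromosome loops, stood in 17 of the 24 HOX promoters (70.8%) and in 69.6% of all. TGACTCA, the AP-1 site of activated T cells, stood in 1 HOX promoter (4.17%) and in 4.66% of all, and TTTAT, the core of posterior HOX sites, in 9 (37.5%) and in 35.0%. A longer form of the CTCF site was in 0 HOX promoters and in 2.34% of all, and a match is a run of letters and not a bound site.

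The first comparison asks where accessible regions lie over the 4 clusters. Counted per 100 kb, the Hoxa cluster carried 12.4 regions of any list, the Hoxd cluster 10.2, the Hoxb cluster 6.54 and the Hoxc cluster 2.57. The 4 clusters together had 7.67 per 100 kb over 652.1 kb, and the genome from the first to the last gene of each chromosome had 3.01. The genome holds long stretches without genes, and windows of 150.6 kb centred on each protein-coding gene held a median of 8 regions, with quartiles of 3 and 14. Set beside such windows, the Hoxa window of 145.5 kb with 18 regions lay above the upper quartile, the Hoxd window of 136.9 kb with 14 lay at it, the Hoxb window of 213.9 kb with 14 is longer than those windows, and the Hoxc window of 155.7 kb with 4 lay between the lower quartile and the median. Within the clusters proper lay 44 of the 50 regions, and 6 lay in the flanks.

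**Figure D1:**
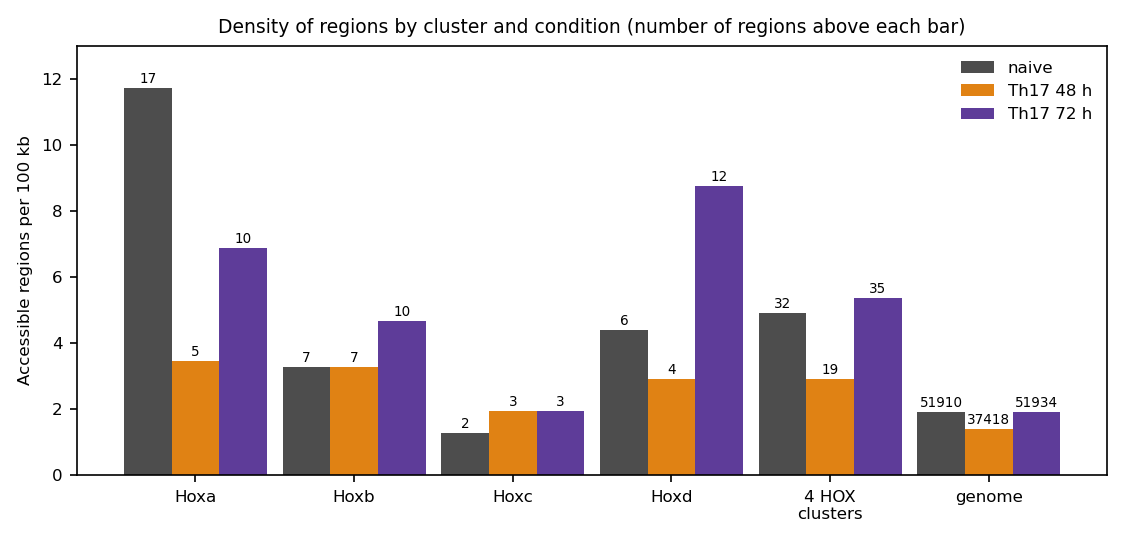
Accessible regions per 100 kb (vertical axis, linear) over each HOX cluster with 20 kb on each side, over the 4 clusters together and over the genome, in the naive, Th17 48 h and Th17 72 h lists, with the number of regions above each bar. The Hoxa bar stands highest in naive cells at 11.7 regions per 100 kb and the Hoxd bar stands highest at 72 h at 8.76, and the Hoxc bars stay under 2 regions per 100 kb in every list.

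The clusters differed in which list held the most regions. The Hoxa cluster had 17 regions in naive cells, 5 at 48 h and 10 at 72 h. The Hoxb cluster had 7, 7 and 10, the Hoxc cluster 2, 3 and 3, and the Hoxd cluster 6, 4 and 12. Hoxa was thus richest in naive cells and Hoxd at 72 h. All 4 clusters together had 32 regions in naive cells, 19 at 48 h and 35 at 72 h, and the peaks covered 1.25%, 0.565% and 1.29% of their length, against 0.733%, 0.467% and 0.654% of the genome.

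Peaks over the HOX clusters were narrow and low in score. Their median width was 196 bp in naive cells, 195.5 bp at 48 h and 187 bp at 72 h, against 273, 234 and 239 bp over the whole lists. The score is the authors' own value, with a scale not given in the sources used here, and the naive list has none, so scores are read within 1 list. The median HOX score was 52.5 at 48 h, against 69 for the whole list, and 58 at 72 h, against 76. At or above the median of their list lay 5 of 20 HOX peaks at 48 h and 11 of 35 at 72 h. The peak with the highest score over the clusters, 256 at 72 h, lay beside Hoxa4.

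**Figure D2:**
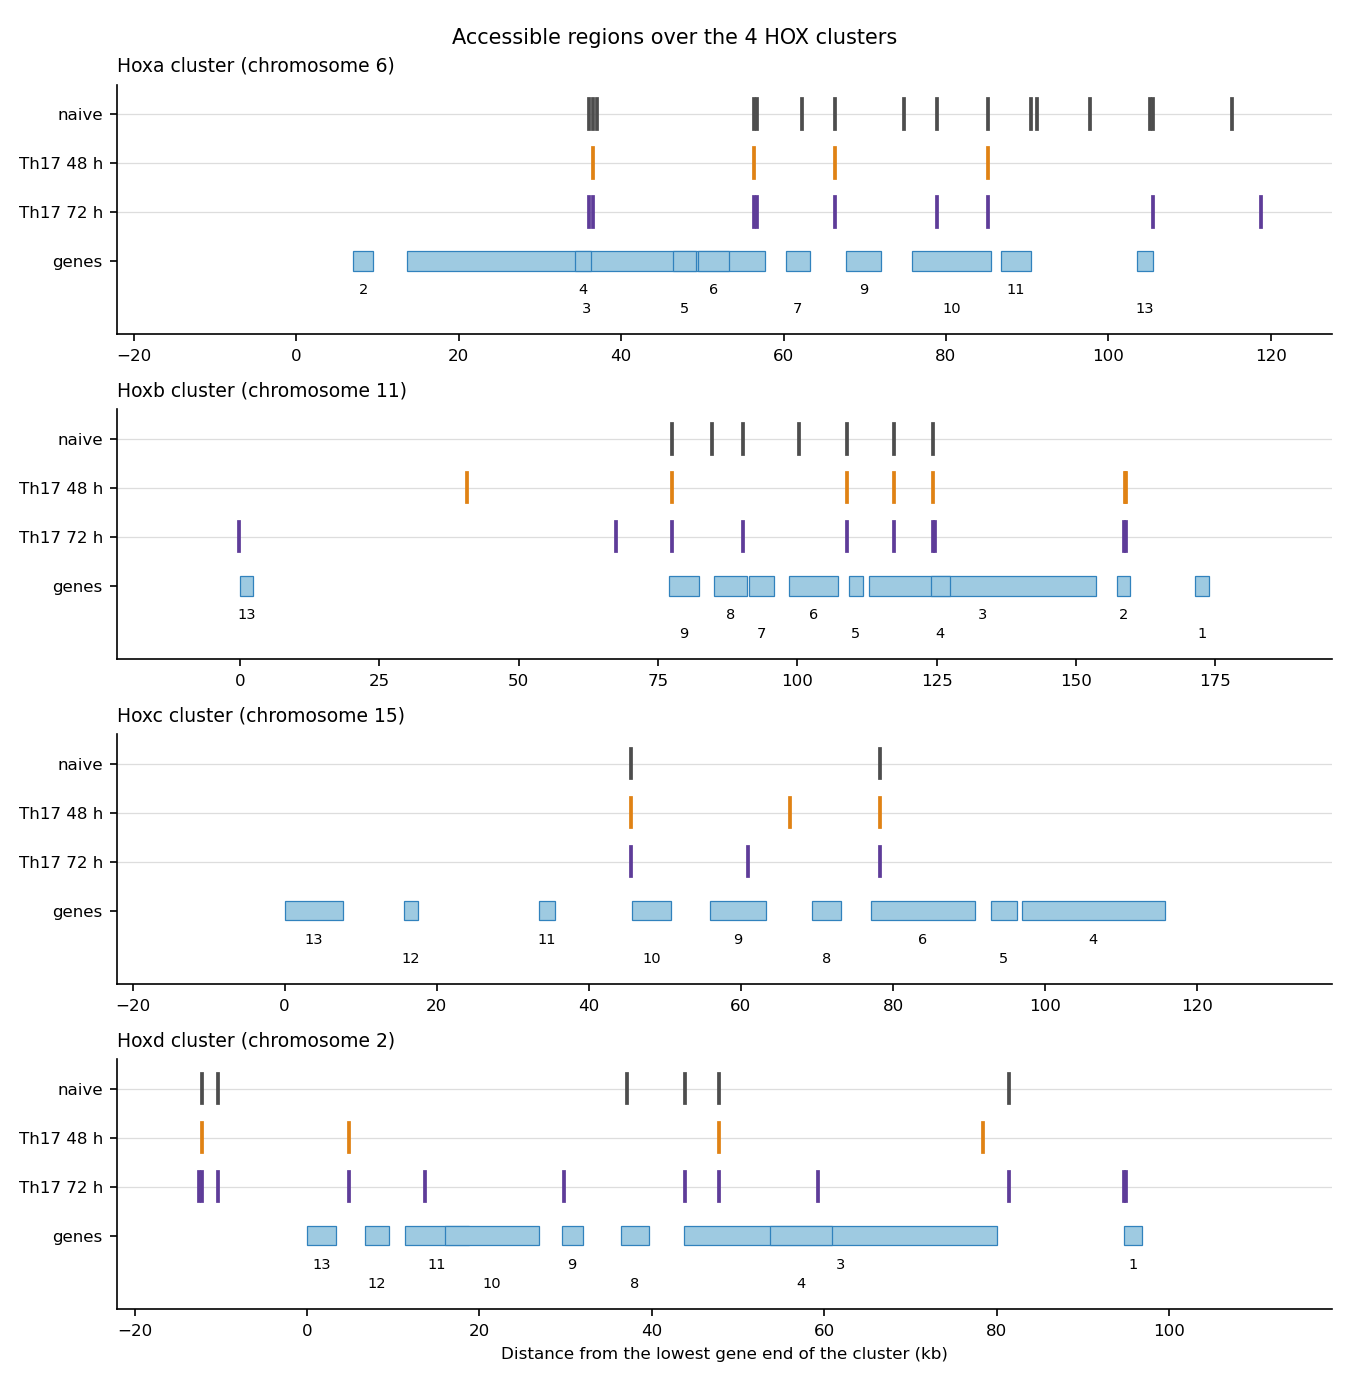
Map of the 4 clusters with the distance from the lowest gene end in kb on the horizontal axis; vertical bars mark regions with a peak in the naive, Th17 48 h and Th17 72 h lists from top to bottom, drawn wider than to scale, and boxes are the gene bodies labelled by paralog group. One gene of the Hoxa cluster and its region are not drawn. The naive row of Hoxa runs along the cluster with more bars than the 48 h and 72 h rows, and the 72 h row of Hoxd holds bars over paralog groups 1, 4, 9 and 11 that the other rows lack.

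The Hoxa cluster lies on chromosome 6 and holds 11 genes. Of its 5 regions present in all 3 lists, 4 are described here, beside Hoxa4, between Hoxa6 and Hoxa7 inside the long Hoxa3 gene body, between Hoxa7 and Hoxa9, and at Hoxa10. Peaks carry no strand, so where annotated genes overlap, the gene a region belongs to cannot be told.

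The region beside Hoxa4 lay at chr6:52191818-52192132, with its middle 272 bp from an end of that gene. Its peaks covered 315 bp in naive cells, 111 bp at 48 h and 240 bp at 72 h, with a score of 60 at 48 h, at percentile 41.6, and of 256 at 72 h, at percentile 93.7. It was present throughout but stood far higher among the 72 h peaks than among the 48 h peaks. A neighbour at chr6:52191214-52191539, inside the body of Hoxa4, was present in naive cells and at 72 h, and another at chr6:52192262-52192452 in naive cells alone. All 3 lie also within the annotated body of Hoxa3, a gene needed for the thymus and parathyroid, which spans Hoxa4, Hoxa5 and Hoxa6.

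Nearest to posterior Hoxa genes, groups 9 to 13, lay 10 regions in naive cells, 2 at 48 h and 5 at 72 h. Hoxa10, which acts in the uterus and in blood progenitors, kept its region at chr6:52240396-52240689 in all 3 lists, with scores of 74 at 48 h and 95 at 72 h. A second region of Hoxa10 at chr6:52234149-52234371 was present in naive cells and at 72 h. Hoxa11 and its antisense RNA Hoxa11os had 2 regions, both present in naive cells alone. Hoxa13 had 2, of which chr6:52260245-52260605, with a naive peak of 361 bp, was present in naive cells alone, and the one over its start was present in naive cells and at 72 h with a score of 105, at percentile 65.0. Hoxa7 had 1 region at chr6:52217512-52217733, in naive cells alone. Hoxa9, the member most tied to blood stem cells and leukaemia, had 0 regions on its body or within 1 kb in any list, as had Hoxa2, Hoxa5 and Hoxa6, and the closest region to Hoxa9, 1191 bp away at chr6:52221533-52221906, was present in all 3 lists with low scores of 38 and 37.

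The Hoxb cluster spans chr11:96194316-96368254 and holds 10 genes, of which Hoxb13 stands far from the others. Its 4 regions present in all 3 lists lay at Hoxb9, beside Hoxb5, in Hoxb3 and at Hoxb4. The region at Hoxb4, a gene known for expanding blood stem cells, lay at chr11:96318386-96318857 and its peaks covered 285 bp in naive cells, 233 bp at 48 h and 472 bp at 72 h. A second Hoxb4 region, chr11:96318936-96319141, was present at 72 h alone with a score of 48. Both overlap also the long annotated body of Hoxb3.

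Hoxb2, a gene of the hindbrain, had 3 regions close to each other, none of them in the naive list. Of these 3, chr11:96352980-96353079 was present at 48 h alone, chr11:96352770-96352919 at 72 h alone and chr11:96353198-96353455 at both times, and their scores ran from 30, the lowest that either list holds, to 59 at percentile 36.9 of the 72 h list. They also overlap the antisense RNA Hoxb3os. Hoxb13, known from the prostate, had 1 region 22 bp outside its body at chr11:96194145-96194294, present at 72 h alone with a score of 90, at percentile 58.0. Losses in this cluster lay at its centre. The region of Hoxb6 at chr11:96294632-96294782 and one 381 bp from Hoxb8, a gene used to immortalise myeloid progenitors, were present in naive cells alone, and a region inside Hoxb8, which is also within 1 kb of Hoxb7, was present in naive cells and at 72 h. Hoxb1 had 0 regions.

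The Hoxc cluster spans chr15:102921131-103036856 and was the poorest, with 9 genes and 4 regions. The region of Hoxc10, a gene of the lumbar spinal cord and hindlimb, lay at chr15:102966459-102967010 with its middle 62 bp from an end of the gene and was present in all 3 lists. Its peaks covered 136 bp in naive cells, 206 bp at 48 h and 552 bp at 72 h, with scores of 79 at 48 h, at percentile 58.4, and 132 at 72 h, at percentile 73.7. The region of Hoxc6 was also present in all 3 lists, with scores of 43 and 36. Hoxc9 had 1 region at 72 h alone with a score of 32. Hoxc4, Hoxc5, Hoxc8, Hoxc11, Hoxc12 and Hoxc13 had 0, and the remaining region, 2877 bp from Hoxc8, was present at 48 h alone.

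The Hoxd cluster spans chr2:74668225-74765142 and holds 9 genes, with Evx2, another homeobox gene, in its flank. In Hoxd3, an anterior gene of the upper vertebrae, chr2:74715805-74716210 was present in all 3 lists. Its peaks covered 406 bp in naive cells, 199 bp at 48 h and 277 bp at 72 h, and its score was 64 at 48 h, at percentile 46.3, and 145 at 72 h, at percentile 77.1. The other region in all 3 lists lay over Evx2, which had 2 regions in naive cells, 1 at 48 h and 3 at 72 h.

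Regions at 72 h alone were spread along the Hoxd cluster. Hoxd1 had 2, the one over its start with a score of 58, at percentile 36.1, and a second at chr2:74763241-74763340 with a score of 36. Hoxd11, a limb gene, had 1 of 376 bp at chr2:74681767-74682142 with a score of 74, at percentile 49.3, and Hoxd9 had 1 at chr2:74697949-74698112 with a score of 59. Hoxd4 had 1 at chr2:74727413-74727514 with a score of 35, and the last lay over Evx2 with a score of 30, the lowest in the list. None of the 6 reached the median 72 h score. Between Hoxd13 and Hoxd12, 1439 bp from Hoxd13, chr2:74673042-74673232 was absent from naive cells and present at 48 h and at 72 h with scores of 83 and 92, at percentiles 60.6 and 59.5. Hoxd8 had the opposite pattern, with a single region of 398 bp at chr2:74705182-74705579 in naive cells alone. Over Haglr, a non-coding RNA between Hoxd3 and Hoxd1, a region of 727 bp at chr2:74749302-74750028 was present in naive cells and at 72 h with a score of 110. Hoxd10, Hoxd12 and Hoxd13 had 0 regions on the body or within 1 kb in any list.

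Gene by gene, 11 of the 39 HOX genes had a region on the body or within 1 kb in all 3 lists. Among these are Hoxa3, Hoxa4, Hoxa10, Hoxb3, Hoxb4, Hoxb5, Hoxb9, Hoxc6, Hoxc10 and Hoxd3, so that every member of paralog group 3 is included. Hoxa3, Hoxb3 and Hoxd3 have long annotated bodies of 44009, 40830 and 36279 bp that span neighbouring genes, whose regions count for them too. Another 4 genes, Hoxa7, Hoxa11, Hoxb6 and Hoxd8, had regions in the naive list alone, and 6 genes, Hoxb13, Hoxc9, Hoxd1, Hoxd4, Hoxd9 and Hoxd11, in the 72 h list alone. Hoxb2 had regions at 48 h and 72 h, and Hoxa13, Hoxb7 and Hoxb8 in the naive and 72 h lists. No HOX gene had regions at 48 h alone. The other 14 genes had none, among them both members of paralog group 12. The shares of all protein-coding genes with each of these patterns were not counted, so whether the counts are unusual cannot be told.

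**Figure D3:**
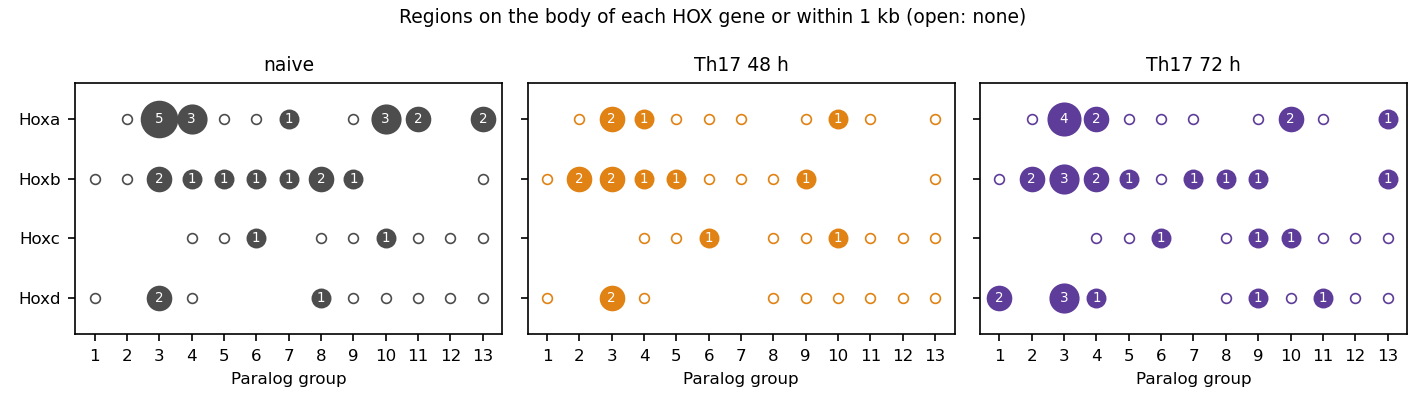
Number of regions on the body of each HOX gene or within 1 kb in the naive, Th17 48 h and Th17 72 h lists, with clusters as rows and paralog groups as columns; the number and the size of a filled point give the count, an open point is 0, and a gap is a gene the cluster lacks, or the one Hoxa gene not shown. Group 3 is filled in every cluster that has it and in every list, and Hoxd fills groups 1, 4, 9 and 11 at 72 h alone. The annotated bodies of group 3 are long and span neighbouring genes.

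In any list 25 of the 39 HOX genes (64.1%) had a region on the body or within 1 kb, against 69.8% of all protein-coding genes. In naive cells 18 HOX genes (46.2%, exact 95% interval 30.1 to 62.8%) did, against 62.7%. At 48 h 12 did (30.8%, 17.0 to 47.6%), against 62.8%, and at 72 h 21 did (53.8%, 37.2 to 69.9%), against 66.8%. The interval for 48 h lies below the share of all genes and the other intervals include it. Starts could be read for fewer genes. Of the 22 HOX genes with a RefSeq start, 11 had a region within 1 kb of it in any list, against 60.7% of 17492 genes. In naive cells 8 (36.4%, 17.2 to 59.3%) did, against 54.9%, and 2 (9.09%, 1.12 to 29.2%) did at 48 h, against 54.7%. At 72 h 8 did (36.4%), against 58.2%. Intervals cover counting error only, and they are too narrow here, since neighbouring HOX genes share regions.

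The second comparison asks what differs between 48 h of Th17 culture and naive cells. Over the Hoxa cluster 5 regions were present at 48 h, against 17 in naive cells, all 5 of them shared, so that 0 were gained and 12 lost (70.6% of the 17 regions in either list, 44.0 to 89.7%). The lost regions include those of Hoxa7, Hoxa11 and Hoxa13. The Hoxb cluster gained 3 and lost 3 of 10, with gains at Hoxb2 and between Hoxb13 and Hoxb9 and losses at Hoxb6 and Hoxb8, the Hoxc cluster gained 1 and lost 0 of 3, and the Hoxd cluster gained 2 and lost 4 of 8. Over the 4 clusters 6 of 38 regions were gained (15.8%, 6.02 to 31.3%), against 21.9% of the 66439 regions of the genome, and 19 were lost (interval 33.4 to 66.6%), against 43.7%. Both intervals include the share of the genome. The Hoxa interval for losses starts just above it, in a cluster singled out after its counts were seen. By position, central genes gained 1 and lost 5 of 8 regions, posterior genes gained 2 and lost 9 of 16, and anterior genes gained 3 and lost 5 of 14.

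The 48 h list is the shortest. With the 40624 widest peaks of each list the 4 clusters gained 10 and lost 12 regions at 48 h, against 6 and 19 with all peaks. Peak names carry running numbers, and some numbers are absent from each list, which marks places where a peak may have been left out. Beside such a number lay 5 of the 6 gained and 9 of the 19 lost regions. In the Hoxa cluster 7 of the 12 lost regions lay beside such a number, 2 numbers being absent there from the 48 h list, and whether peaks left out there account for losses was not tested. When only peaks as wide as their list's median or wider were kept, the Hoxa cluster lost 5 regions.

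**Figure D4:**
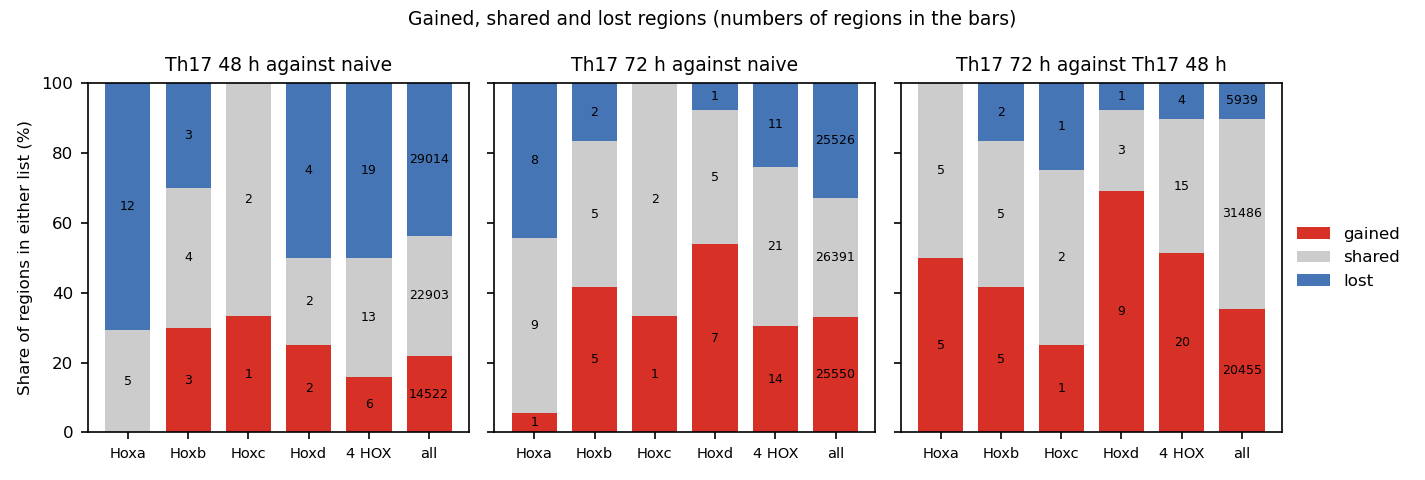
Share of regions gained, shared and lost (vertical axis, % of regions in either list, numbers of regions in the bars) for Th17 48 h against naive, Th17 72 h against naive and Th17 72 h against Th17 48 h, over each HOX cluster, the 4 clusters together and all regions. Hoxa is mostly lost at 48 h with 12 of 17, Hoxd is mostly gained at 72 h with 7 of 13 against naive cells and 9 of 13 against 48 h, and the 4 clusters together lie close to all regions in the comparisons with naive cells.

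The third comparison sets 72 h of Th17 culture against naive cells. The Hoxd cluster had 12 regions at 72 h, against 6 in naive cells, with 7 of 13 gained (53.8%, 25.1 to 80.8%), 1 lost (7.69%, 0.195 to 36.0%) and 5 shared. Its gains lay at Hoxd1, Hoxd4, Hoxd9, Hoxd11, Evx2 and between Hoxd13 and Hoxd12, and its loss at Hoxd8. The Hoxa cluster had 10 regions at 72 h, against 17 in naive cells, with 1 of 18 gained (5.56%) and 8 lost (44.4%, 21.5 to 69.2%). The Hoxb cluster gained 5 of 12 (41.7%, 15.2 to 72.3%), at Hoxb2, Hoxb4, Hoxb13 and over the non-coding RNA Gm53, and lost 2 (16.7%), at Hoxb6 and Hoxb8. The Hoxc cluster gained 1 of 3, at Hoxc9, and lost 0. Over the 4 clusters 14 of 46 regions were gained (30.4%, 17.7 to 45.8%), against 33.0% of the 77467 regions of the genome, and 11 were lost (23.9%, 12.6 to 38.8%), against 33.0%. Both intervals include the share of the genome. The contrast between Hoxd and Hoxa rests on counts of 1 to 8. Anterior genes gained 6 and lost 1 of 17 regions, central genes gained 0 and lost 4 of 7, and posterior genes gained 8 and lost 6 of 22.

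The Hoxd gains were mostly peaks of low score. When only peaks as wide as their list's median or wider were kept, the Hoxd cluster gained 2 regions and lost 2. The Hoxa cluster then gained 3 and lost 4, against 1 and 8 with all peaks, so its contrast with Hoxd was not kept. Of the 8 Hoxa regions in naive cells alone, 6 had a peak narrower than the list median. The contrast was kept with the widest peaks of each list, as many as the shortest list holds. Hoxd then gained 5 and lost 1, and Hoxa gained 0 and lost 7. With 48 h and 72 h peaks at or above their median score, Hoxd gained 1 and lost 3, and Hoxa gained 0 and lost 12. Under the same score limit the 4 clusters gained 2 and lost 23. That limit acts on the 72 h list alone here, since the naive list has no score. Beside an absent number lay 9 of the 14 gained and 6 of the 11 lost regions.

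The fourth comparison sets 72 h against 48 h, and most of the difference was gain, as it was over the genome. The Hoxd cluster had 12 regions at 72 h, against 4 at 48 h, with 9 of 13 gained (69.2%, 38.6 to 90.9%) and 1 lost. The Hoxa cluster had 10 at 72 h, against 5 at 48 h, with 5 gained and 0 lost. Of those 5, 4 were regions of naive cells, at Hoxa3, Hoxa4, Hoxa10 and Hoxa13, and 1 lay in the flank. The Hoxb cluster gained 5 and lost 2 of 12, and the Hoxc cluster gained 1 and lost 1 of 4. Over the 4 clusters 20 of 39 regions were gained (51.3%, 34.8 to 67.6%), against 35.3% of the 57880 regions of the genome, and 4 were lost (10.3%), against 10.3%. The interval for gains includes the share of the genome, near its lower end. When each list was limited to its widest 40624 peaks, 10 were gained over the 4 clusters and 5 over Hoxd, and beside an absent number lay 9 of the 20 gained regions.

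Sorted by the lists that hold them, 13 of the 50 HOX regions were present in all 3 (26.0%, 14.6 to 40.3%), against 25.6% of all regions. In naive cells alone were 11 (interval 11.5 to 36.0%), against 28.8% of all regions. At 72 h alone were 12 (interval 13.1 to 38.2%), against 18.3%. Each of these intervals includes the share of all regions. The naive and 72 h lists without the 48 h list held 8 (16.0%, 7.17 to 29.1%), against 6.86% of all regions, and these lay at Hoxa3, Hoxa4, Hoxa10, Hoxa13, Hoxb8, Hoxd3, Haglr and Evx2. The 48 h list, which lacks them, is the shortest. No HOX region was shared by the naive and 48 h lists without the 72 h list, a class with only 2.57% of all regions. The 48 h and 72 h lists without the naive list held 2 (4.0%, 0.488 to 13.7%), against 13.1%. For the 8 regions the median 72 h score was 48, against 95 for the 13 HOX regions in all 3 lists and 41.5 for the 12 at 72 h alone, and the order was the same over all regions, with 52, 133 and 51. Among regions in all 3 lists those of HOX clusters had a median width of 374 bp, against 604 bp.

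**Figure D5:**
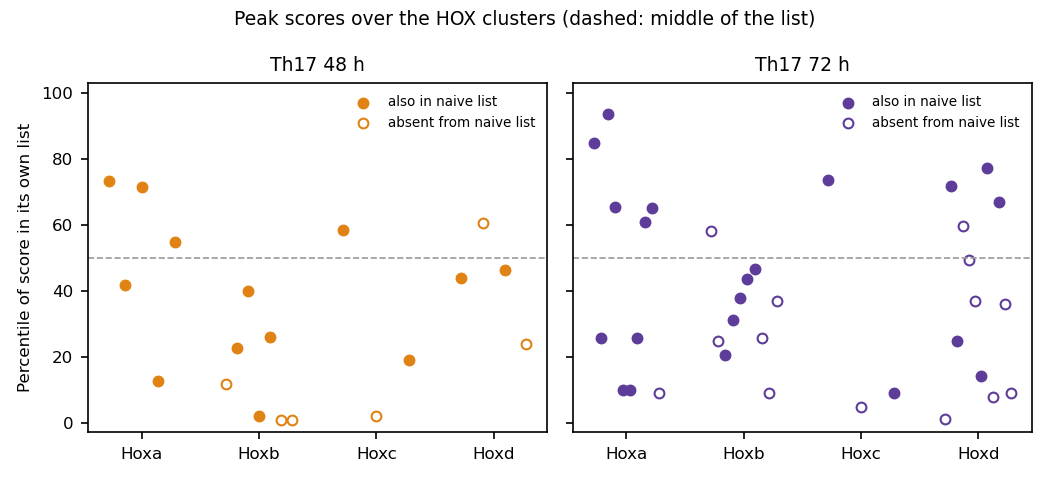
Percentile of each HOX peak's score within its own list (vertical axis) by cluster at 48 h and at 72 h; filled points are regions also in the naive list, open points are regions absent from it, and the dashed line is the middle of the list. At 72 h the open points of Hoxd stay between percentile 1.0 and 59.5, and the filled points of Hoxa reach 93.7.

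The clusters also hold microRNA genes, whose mature sequences are shown because each pair shares its seed, bases 2 to 8, given in capitals, and so a set of possible targets. The miR-10 genes lie beside paralog group 4 and the miR-196 genes beside groups 9 and 10, and both kinds are known to target HOX transcripts. The sequences are those of RefSeq on assembly GRCm38.p6, with miR-196b-5p at chr6:52230129-52230150 on the minus strand, miR-196a-5p at chr11:96265187-96265208 and chr15:102973365-102973386, miR-10a-5p at chr11:96317186-96317208 and miR-10b-5p at chr2:74726074-74726096, all on the plus strand but the first.
miR-196b-5p: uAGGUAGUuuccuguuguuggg
miR-196a-5p: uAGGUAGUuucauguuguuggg
miR-10a-5p: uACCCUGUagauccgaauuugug
miR-10b-5p: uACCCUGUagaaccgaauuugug

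Of these genes only Mir196b overlapped a region, chr6:52230118-52230283, which was present in naive cells alone and holds the whole mature sequence of miR-196b-5p. Mir10a lay 1112 bp from the Hoxb4 region present in all 3 lists, and Mir10b 1276 bp from the Hoxd4 region present at 72 h alone. The nearest region to Mir196a-1 was 3358 bp away and that to Mir196a-2 6340 bp. Of the 27 long non-coding RNA genes in the 4 windows, 12 overlapped a region, a count with no share of all such genes to set beside it. Hoxa11os had 2 regions in the naive list and 0 in both later lists, Hoxb3os had 0 in naive cells, 2 at 48 h and 2 at 72 h, and Hoxaas3 and Hoxd3os1 each had 2, 1 and 2 in that order. Hottip, which in human cells acts on the posterior HOXA genes, had 0 with the nearest region 1724 bp away, and Hotair, known for acting with Polycomb in human cells, had 0 with the nearest 18513 bp away.

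The partners and regulators of HOX proteins were compared on their bodies with 10 kb on each side. On this measure 7 of the 39 HOX genes had more gained than lost regions at 48 h against naive cells and 18 more lost than gained, beside 14.8% and 37.3% of all protein-coding genes. At 72 h against naive cells 12 HOX genes (30.8%) had more gained and 13 (33.3%) more lost, beside 25.8% and 27.8%, and at 72 h against 48 h 24 (61.5%) had more gained and 0 more lost, beside 37.1% and 8.45%. Neighbouring genes share these regions, 45 in all. Of the 9 TALE cofactors, homeodomain proteins that bind DNA with HOX proteins, 3 had more gained and 5 more lost regions at 48 h against naive cells, and 6 and 3 at 72 h. For these and the other lists of regulators, the shares of all genes are 14.8% and 37.3% at 48 h and 25.8% and 27.8% at 72 h. Meis1, the partner of Hoxa9 in leukaemia, had 2 regions at 48 h and 2 at 72 h, against 0 in naive cells. Pbx3 had 3 and 4, against 2. The other way went Pknox2, with 1 and 3, against 4, and Pknox1, with 1 and 2, against 3.

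Of the 11 genes of the Trithorax side and upstream activators, 4 had more gained and 5 more lost at 48 h against naive cells, and likewise 4 (36.4%) and 5 (45.5%) at 72 h. Kmt2a, the methyltransferase that keeps HOX genes active, had 5 regions in naive cells, 6 at 48 h and 7 at 72 h, and its fusion partners Aff1 and Mllt3 had 22, 9 and 13 and 20, 9 and 13. Of 25 Polycomb genes 7 had more gained and 11 more lost at 48 h, and 6 (24.0%) and 11 (44.0%) at 72 h, where 25.8% and 27.8% of all genes did. Jarid2, the Polycomb gene with the most unequal gains and losses, had 13 regions in naive cells, 7 at 48 h and 9 at 72 h. The alternative methyltransferases of the Polycomb complex that marks histone H3 had opposite patterns. Ezh2, the one of dividing cells, had 1 region in naive cells, 4 at 48 h and 5 at 72 h. Ezh1, the one of resting cells, had 5, 4 and 2. Of 8 genes of chromosome loops 0 had more gained and 6 more lost at 48 h, and 2 and 4 of 8 at 72 h, with Nipbl, which loads cohesin, at 9, 2 and 5 and Ctcf at 4, 3 and 2. None of these counts has a replicate check.

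Beside 70 other developmental homeobox genes, such as those of the Dlx, Lhx and Pax families, a smaller share of the HOX genes had more gained regions with all peaks, a difference that was not tested. At 72 h against naive cells 12 of 39 HOX genes (30.8%) had more gained and 13 (33.3%) more lost regions, against 44 (62.9%) and 6 (8.57%) of the other 70. In distinct regions the HOX genes gained 12, lost 11 and shared 19, and the other homeobox genes gained 89, lost 19 and shared 34. Evx1, which lies past Hoxa13, had 3 regions at 72 h, against 0 in naive cells, and Barx2 had 5, against 0. At 72 h alone the 10 regions of HOX genes had a median score of 47.5, against 42 for the 67 of the other homeobox genes and 76 for the whole list. When only peaks as wide as their list's median or wider were kept, 13 of 39 HOX genes and 23 of the other 70 had more gained regions, shares that are alike. More lost regions were then found at 9 HOX genes and at 4 of the others. The difference in gains was kept with the widest peaks of each list, as many as the shortest list holds. Then 13 HOX genes and 40 of the others had more gained regions. With peaks within 100 bp merged, 11 and 43 did. When 48 h and 72 h peaks had to reach their median score, 4 HOX genes had more gained and 22 more lost regions, and 14 and 19 of the other homeobox genes did, and among these gains no longer outnumbered losses. The naive list has no score, so this limit removes only 72 h peaks here. By itself it works against gains in any set of genes.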

How the data were processed

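ATAC-seq peaks of naive CD4 T cells and of Th17 cells at 48 h and 72 h were analysed as 1 deposited list per condition. Tools per the submitters' processing notes were MACS2 2.2.6, deepTools, SAMtools 1.9 and Bowtie2 2.3.4.1, and the build was GRCm38, also called mm10. How peaks were thresholded and filtered, how duplicates and the Tn5 offset were handled and whether both libraries were pooled was not given in the sources used here. As deposited by the authors, the lists hold peak coordinates and names, and the 48 h and 72 h lists a score per peak, the authors' own value, from 30 upward. One Hoxa gene is not reported here, though it is kept in the counts. From the naive list 1 blank line was dropped.

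Peaks sharing at least 1 bp were merged, and regions were assigned to RefSeq genes of GRCm38.p6 by overlap (Python 3.11.15, pandas 2.3.3, numpy 2.4.6, SciPy 1.17.1, matplotlib 3.10.9). Coordinates are 1-based on GRCm38. Gene lists took the body with 10 kb on each side. The merging and counting were tested on simulated peaks. Shares have exact Clopper-Pearson 95% intervals, which cover counting error only. Depth is unknown and there is 1 list per condition, so no test was made. The HOX genes and all lists were chosen with earlier results of these data known. All HOX genes and every other gene in the windows could be named, and in each other list up to 4 members with the most unequal gains and losses. Members with 0 regions were named where a count called for them. Cd3e, Cd4, Il23r, Kmt2a, Ezh1, Evx1 and Barx2 were named outside this rule, after their values were seen. Promoter and microRNA sequences are from RefSeq, GRCm38.p6. Alternatives changed the flank, the merging rule and the width or score that peaks had to reach.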

Additional observations from a re-analysis of the deposited data

How the results depend on the processing

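Each condition has 1 list, so no replicate could be left out. No paired analysis was possible because the replicate numbers of the libraries do not appear in the lists. Flanks of 0 or 50 kb, merging across 100 bp and an overlap rule set by the shorter peak kept the regions per cluster and the gains and losses over the 4 clusters within 1.5 times their value. Filters on peaks did not. When peaks had to be as wide as their list's median, Hoxa had 9 regions, Hoxb 4, Hoxc 1 and Hoxd 6. Gains and losses over the 4 clusters were then 0 and 11 for 48 h against naive, 8 and 7 for 72 h against naive, and 12 and 0 for 72 h against 48 h. More gained regions at 72 h were then found at 13 HOX genes and at 23 other homeobox genes, and more lost regions at 9 and at 4. Once each list was limited to its widest 40624 peaks, Hoxb had 9 regions, 10 were gained and 12 lost at 48 h against naive, and 10 were gained at 72 h against 48 h. With 48 h and 72 h peaks at or above their median score, Hoxb had 8 regions, Hoxc 2 and Hoxd 7. The naive list, which has no score, was left whole. Gains were then 1 for 48 h against naive, 2 with 23 losses for 72 h against naive, and 6 with 0 losses for 72 h against 48 h. HOX genes with more gained and more lost regions then numbered 4 and 22, and other homeobox genes 14 and 19. Leaving out calls beside an absent peak number left 1 gained and 10 lost at 48 h against naive, 5 and 5 at 72 h against naive, and 11 gained at 72 h against 48 h. This last alternative, and all of those on HOX and other homeobox genes, were chosen after seeing the data. The Hoxa losses at 48 h were 5 with the width filter, and the cause of these shifts was not tested. Depth is unknown, so what it limits cannot be given.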
